A study of Mus musculus with 12 samples.

Results

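The genes described here are 10 genes of the ATF4 stress response and of amino acid synthesis (Atf4, Atf5, Ddit3, Trib3, Chac1, Asns, Phgdh, Psat1, Shmt2 and Gpt2), measured by RNA-seq in cardiac macrophages (Mφ). They were chosen by name out of 24445 gene symbols, with results of these libraries already known, so their differences are given as a description and carry no test of their own. All 10 passed the filter on low counts, among 14608 genes that did. Mφ positive for CD14 and CD64 were sorted from hearts of male C57BL6/J mice, and 1 library per heart was deposited for 4 Ct, 4 ECH and 4 HF mice. Ct mice carried a saline pump, and the sources used here do not give the infusion time of each. ECH mice (early concentric hypertrophy) had pumps with isoproterenol, which stimulates β-adrenergic receptors, for 14 days at 30 mg/kg/day, and HF mice (heart failure) had them for 28 days at that dose. No group carried a genetic modification in the labels, and the sorted cells of each heart were measured as 1 bulk sample.

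ATF4 is the transcription factor of the integrated stress response. Several kinases phosphorylate the initiation factor eIF2α when amino acids are short, when unfolded proteins build up in the endoplasmic reticulum, or under other stresses, which lowers general translation while the ATF4 protein is made more efficiently. ATF4 then switches on genes that import and make amino acids and charge tRNAs, and, when the stress lasts, genes such as Ddit3 and Trib3 that are tied to cell death. Because ATF4 is controlled largely at translation, the level of Atf4 mRNA is a different quantity from the activity of the protein, which was not measured.

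Promoter sequence of the members was read from RefSeq on build GRCm38.p6, as the 250 bases before and the 50 bases after each start site, and all 10 members matched. The letters TGATGNAA, the core of many elements bound by ATF4 with a C/EBP partner, were searched on both strands and were found in 3 members, against 4.51% of 27025 genes. The windows around those matches are shown because they are the members with such letters near the start site. Capitals mark the match, which in Trib3 and Chac1 lies on the opposite strand and is printed as its reverse complement, and each window is read 5′ to 3′ on the strand of its gene.
Asns, chr6:7693214-7693243, minus strand: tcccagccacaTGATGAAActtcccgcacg
Chac1, chr2:119351038-119351067, plus strand: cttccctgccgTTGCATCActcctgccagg
Trib3, chr2:152344028-152344057, minus strand: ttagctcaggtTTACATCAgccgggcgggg
The match began 23 bases before the start site in Asns and 193 bases before it in Chac1, and at base 15 after it in Trib3. The palindrome TGACGTCA, bound by CREB and ATF family members, was in 0 of the 10 members and in 2.03% of genes. No match in a window says only that these letters are not there. Gpt2, the member with the largest difference relative to its spread, held neither set of letters in any window read. Its 120 bases before the start site are printed for reference.
Gpt2, chr8:85492456-85492575, plus strand: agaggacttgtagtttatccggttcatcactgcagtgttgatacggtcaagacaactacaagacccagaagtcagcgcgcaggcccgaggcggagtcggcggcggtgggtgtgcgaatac

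Library totals were 88466559 to 101190984 counts in Ct, 103926379 to 109030774 in ECH and 106276190 to 111180291 in HF. Ct library 2 and HF library 1 stood apart: 127 and 188 genes held no count there although the other 3 libraries of their group held at least 100 each, against at most 7 in any other library. Library numbers in the labels split the libraries into a set A (all Ct, ECH 1 and 2) and a set B (ECH 3 and 4, all HF). That split is inferred, and the labels do not say what it stands for. HF against Ct and set B against set A cannot be told apart without the ECH libraries as a bridge. The sum of 7 Mφ markers, among them Csf1r, Adgre1 and Cd14, was 7454 to 10186 CPM in Ct, 9125 to 11008 CPM in ECH and 9072 to 10049 CPM in HF, and none of the 7 was at 0 in any library. Csf1r and Cd14 make up most of that sum. By unadjusted p, 2 of the 7 passed in ECH against Ct (Itgam, log2 0.92 ± 0.24, FDR 0.132, and Mertk, 1.43 ± 0.35, FDR 0.101) and 2 in HF (Itgam, 0.63 ± 0.24, FDR 0.239, and Cd68, 0.41 ± 0.11, FDR 0.126), with 0 called. Of all genes tested, 11.9% in ECH and 16.1% in HF passed by unadjusted p. The values of Itgam, Mertk and Cd68 given here have the sign of those of Gpt2, and their part in its difference was not tested. CPM is the value edgeR gives for a count relative to the TMM-scaled library size.

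The 10 genes did not behave as a unit. Gpt2 was higher in every ECH and every HF library than in any Ct library. Trib3 and Asns had higher means after isoproterenol, Atf4, Ddit3 and Phgdh had lower ones, and Shmt2 and Psat1 lay close to Ct in ECH. Atf5 and Chac1 had lower means too, but their log2 fold changes turned positive without 1 Ct library, and that of Ddit3 in HF turned positive with the library set as a covariate. In ECH the log2 fold change of Phgdh was −0.22 without Ct 2, and that of Asns (1.11) was smaller than its SE (1.17). Against Ct, 3 of the 10 had a positive log2 fold change in ECH and 5 of 10 in HF, with a median of −0.33 in ECH and −0.26 in HF, beside a median of 0.01 and −0.01 over all genes tested. As these are bulk samples, fewer cells of a type and less RNA per cell cannot be told apart.

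A gene was called when edgeR's quasi-likelihood test gave a false discovery rate (FDR) under 0.05 over all 14608 genes and the fold change was at least 2. In ECH against Ct 1 member, Gpt2, was called, where the background was 0.356% of all genes tested. The same member alone passed on FDR without the fold threshold, against 0.472%. An unadjusted p under 0.05 was reached by 3 members, Gpt2, Trib3 and Atf4, against 11.9% of all genes. Groups that did not overlap were seen for 1 member against 7.97%. In HF against Ct, 0 members were called against a background of 0.377%, and 1 (Gpt2) passed on FDR alone, against 0.513%. By unadjusted p, 4 members passed in that comparison, against 16.1% of genes, DESeq2 called 2 (Phgdh and Trib3), against 2.4% of all genes, limma-voom called 1 (Gpt2), against 0.89%, and edgeR's likelihood ratio test called 0, against 1.87%. Groups did not overlap for 2 members, Gpt2 and Trib3, against 9.04% of genes. In ECH against HF 0 members were called, as were 0% of all genes, with and without the fold threshold, in edgeR's quasi-likelihood test, and DESeq2, the likelihood ratio test and limma-voom called 0 members too, against 0.323%, 0.329% and 0% of genes. An unadjusted p under 0.05 was reached there by 1 member, Gpt2, against 7.98%, and groups did not overlap for 0 members against 6.92%. Since the members were picked with these values in view, nothing is read from the counts. ECH and HF were both compared with the same 4 Ct libraries.

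**Figure D1:**
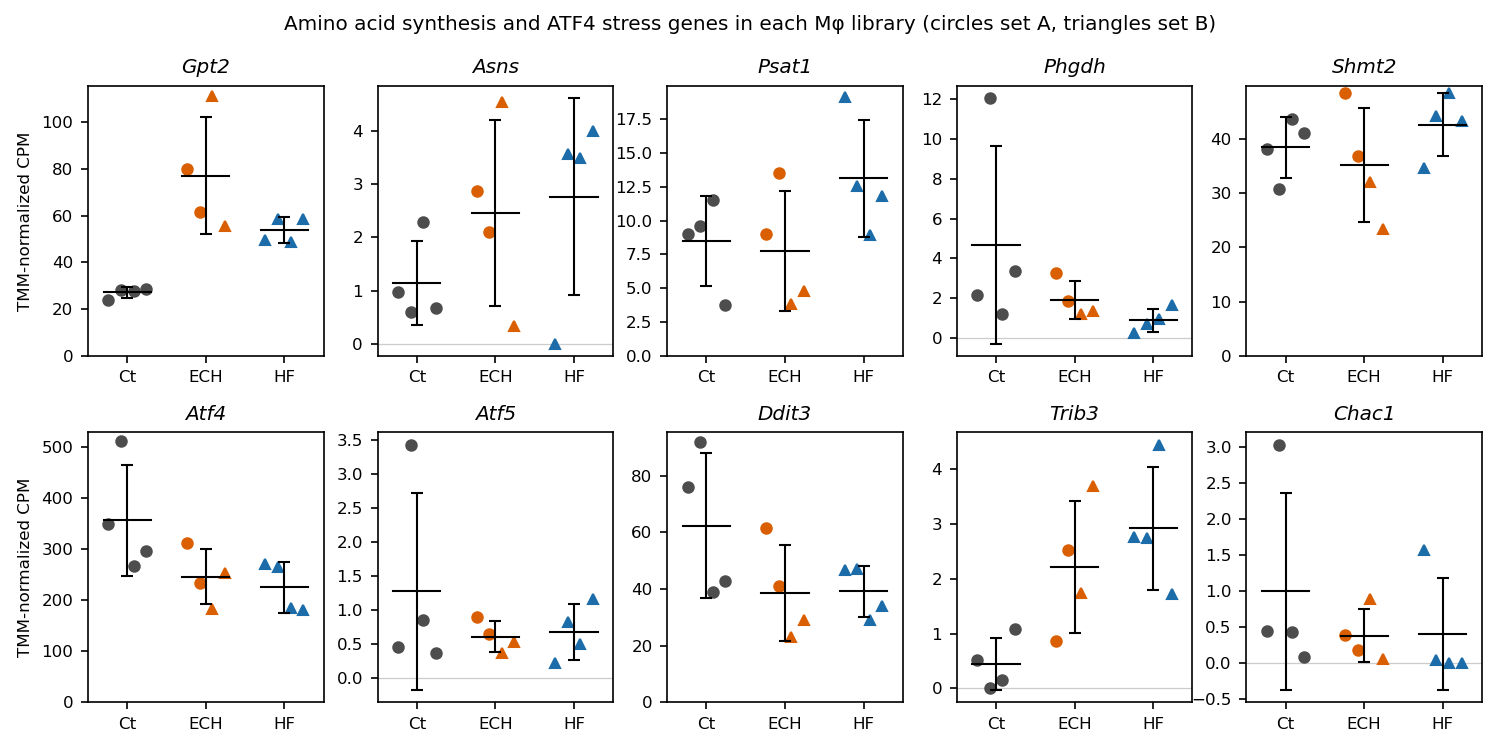
TMM-normalized CPM of the 10 genes in each library, in panels with linear axes that differ in range. Points are libraries in replicate order (circles set A, triangles set B), and lines and bars are the mean and SD of 4. Gpt2 separates from Ct without overlap, with Ct at 23.9 to 28.6 CPM and the isoproterenol groups at 48.6 to 111 CPM, whereas the Ct points of Atf5, Chac1 and Phgdh are spread by 1 high library.

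Gpt2 encodes the mitochondrial alanine transaminase, which interconverts alanine and α-ketoglutarate with pyruvate and glutamate (GRCm38 chromosome 8, 85492576 to 85527560). Its level was 23.9, 28.2, 27.7 and 28.6 CPM in Ct libraries 1 to 4. In ECH it was 79.9, 61.6, 111 and 55.4 CPM, and in HF 49.7, 58.6, 48.6 and 58.3 CPM. Ct was tight, at 27.1 ± 2.18 CPM (SD, n = 4), HF was at 53.8 ± 5.39 CPM and ECH was both higher and wider, at 77.0 ± 24.9 CPM. ECH exceeded Ct by a log2 fold change of 1.51 ± 0.20 (SE), or 2.84-fold. In HF against Ct it was 0.99 ± 0.19, which is 1.98-fold and just under the fold threshold. In ECH against HF it was 0.52 ± 0.19, and the lowest ECH library (55.4 CPM) lay within the HF range.

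Without Ct 2 and HF 1 the log2 fold changes of Gpt2 were 1.51 in ECH and 1.04 in HF against Ct. Within set A, ECH 1 and 2 against the 4 Ct libraries gave 1.38, and within set B, ECH 3 and 4 against HF gave 0.63. With the set as a covariate the value was 1.38 for ECH and 0.75 for HF against Ct. The call in ECH was kept in 21 of 23 alternatives and was lost in the fit of the Ct and ECH libraries alone (1.49) and within set A. ECH 3 alone held 111 CPM, and without it the log2 fold change was 1.28. The cytosolic enzyme of the same reaction, Gpt, was far lower, at 2.26 ± 1.34 CPM in Ct Mφ, with 3.58 ± 0.55 CPM in ECH Mφ and 2.83 ± 0.89 CPM in HF Mφ, and its difference from Ct did not pass (log2 0.67 ± 0.53, quasi-likelihood FDR 0.671 in ECH).

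Atf4 encodes the transcription factor itself (chromosome 15, 80255184 to 80257541). It stood at 350.2, 512, 268 and 296 CPM in Ct, at 313, 234, 182 and 254 CPM in ECH, and at 271, 265, 184 and 181 CPM in HF. Ct 2 was the highest of all 12 libraries, and both isoproterenol groups overlapped with Ct. Against Ct the log2 fold change was −0.54 ± 0.23 in ECH and −0.66 ± 0.23 in HF. Without Ct 2 these values were −0.31 and −0.44, and with the set as a covariate the HF value was −0.34. The direction was negative in all alternatives run for these 2 comparisons, and ECH differed from HF by 0.13 ± 0.23.

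Ddit3, also called CHOP, is a transcription factor induced downstream of ATF4 and tied to stress-driven apoptosis (chromosome 10, 127290829 to 127293753). Its level was 76.0, 91.7, 38.9 and 43.0 CPM in Ct, 61.6, 41.0, 23.1 and 29.2 CPM in ECH, and 46.6, 47.0, 29.2 and 33.9 CPM in HF. The groups overlapped, and Ct itself fell into a high and a low pair of libraries. Library titles carry a code whose first part is shared by Ct 1 and 2, Ct 3 and 4, ECH 3 and 4, and HF 1 and 2, and the labels do not say what it stands for. The high and low Ct libraries of Ddit3 were these pairs, and HF 1 and 2 lay above HF 3 and 4. The same order held for Atf4 and for Ppp1r15a, a phosphatase subunit gene, in both groups. The part of whatever the code marks in the differences between groups was not tested. The log2 fold change against Ct was −0.69 ± 0.33 in ECH and −0.67 ± 0.33 in HF. Within set A it was −0.29, and with the set as a covariate it was −0.28 in ECH and 0.30 in HF, so the sign in HF turned.

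Atf5 is a close relative of ATF4, translated under stress in a like manner (chromosome 7, 44812256 to 44816658). It was scarce, with 0.46, 3.43, 0.849 and 0.368 CPM in Ct, 0.901, 0.65, 0.377 and 0.527 CPM in ECH, and 0.23, 0.822, 0.503 and 1.17 CPM in HF. Ct 2 alone set the Ct mean apart. Fitted against Ct, the log2 fold change was −1.06 ± 0.86 in ECH and −0.90 ± 0.85 in HF with that library, and 0.13 and 0.29 without it. The gene overlaps Nup62 and Il4i1, which lie on the other strand, and the strand setting of the counting was not given, so reads from the shared stretch cannot be assigned.

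Trib3 is a pseudokinase induced by ATF4 and CHOP that in turn dampens ATF4 (chromosome 2, 152337422 to 152344032). It was low in all libraries: 0.52, 0.0116, 0.162 and 1.07 CPM in Ct, 0.871, 2.52, 1.73 and 3.69 CPM in ECH, and 2.76, 2.73, 4.43 and 1.72 CPM in HF. Ct 2 held 1 count and Ct 3 held 16, while no isoproterenol library held fewer than 88. HF lay wholly above Ct, and ECH 1 lay within the Ct range. ECH and HF differed from Ct by a log2 fold change of 2.31 ± 0.93 and 2.72 ± 0.95. Without Ct 2 it was 1.91 and 2.31, and without Ct 4 it was 3.24 and 3.64. Within set A it was 1.92 in ECH, and with the set as a covariate it was 2.04 in HF.

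Chac1 degrades glutathione and is a known target of ATF4 (chromosome 2, 119351229 to 119354381). It stood at 0.45, 3.04, 0.425 and 0.0774 CPM in Ct, at 0.396, 0.175, 0.888 and 0.0519 CPM in ECH, and at 1.57, 0.0369, 0 and 0 CPM in HF. The 2 HF libraries at 0 allow up to 0.0279 and 0.0268 CPM (3 counts, counting error only). A single library made up most of the sum in Ct (Ct 2) and in HF (HF 1). In log2 terms ECH differed from Ct by −1.40 ± 1.76 and HF by −1.31 ± 1.76. Without Ct 2 these were 0.25 and 0.34, so no direction is given for Chac1. Without HF 1 the HF libraries left were at or near 0, and the fitted values were −6.21 in HF against Ct and 4.81 in ECH against HF, which depend on the prior count and are no bound.

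**Figure D2:**
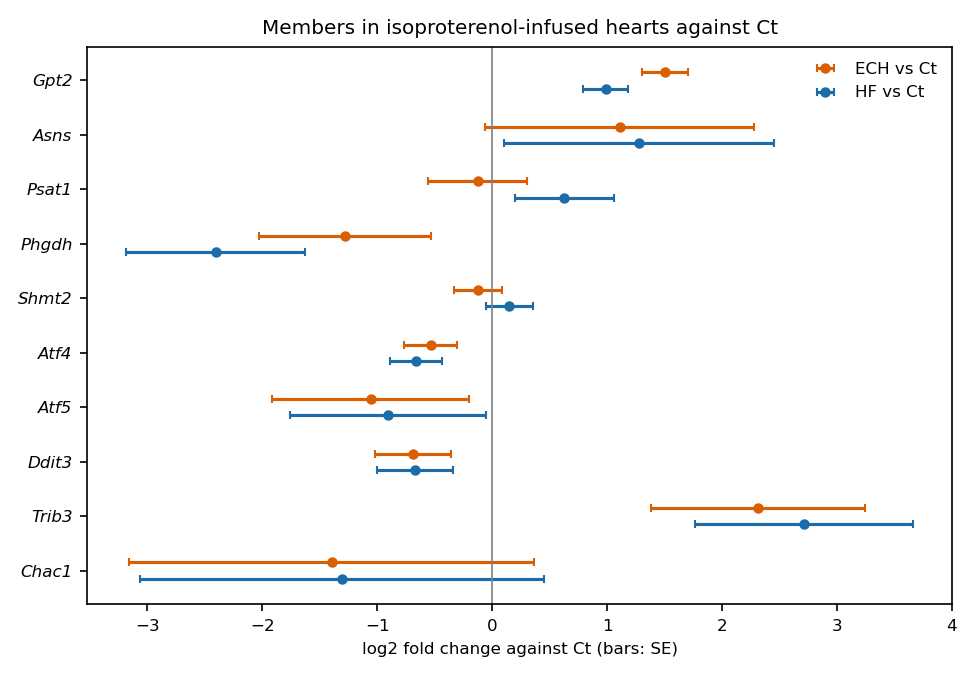
Log2 fold change of each member in ECH (orange) and HF (blue) against Ct, with bars of 1 SE from the model of all 12 libraries. The bar of Gpt2 is the shortest relative to its distance from 0 (1.51 ± 0.20 in ECH). The bars of Chac1 (SE 1.76) and Shmt2 (SE 0.21) span 0 in both comparisons, as those of Asns (SE 1.17) and Psat1 (SE 0.43) do in ECH.

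Asns makes asparagine from aspartate and glutamine and is a classic ATF4 target (chromosome 6, 7675169 to 7693254). Its level was 0.98, 0.605, 2.30 and 0.677 CPM in Ct, 2.87, 2.10, 4.55 and 0.337 CPM in ECH, and 0, 3.56, 3.49 and 4.0 CPM in HF. The HF library at 0 was HF 1, which lacked many other genes, and the limit for its count of 0 was 0.0287 CPM. The other 3 HF libraries lay above all Ct libraries. The log2 fold change against Ct was 1.11 ± 1.17 in ECH and 1.28 ± 1.17 in HF, and without HF 1 the HF value was 1.69. In ECH it was 0.64 without ECH 3 and 1.71 without Ct 3, and in HF 1.87 without Ct 3.

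Phgdh starts the synthesis of serine from a glycolytic intermediate (chromosome 3, 98313170 to 98339990). It was at 2.16, 12, 1.22 and 3.35 CPM in Ct, at 3.29, 1.85, 1.2 and 1.37 CPM in ECH, and at 0.258, 0.683, 0.959 and 1.64 CPM in HF. Ct 2 was again the highest library. Relative to Ct the log2 fold change was −1.28 ± 0.75 in ECH and −2.41 ± 0.78 in HF, and −0.22 and −1.34 without Ct 2. The lowest level was in HF 1, and without both libraries the HF value was −1.04.

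Psat1, a transaminase, carries out the next step of serine synthesis (chromosome 19, 15904678 to 15947337). It was at 9.04, 9.62, 11.5 and 3.76 CPM in Ct, at 9.02, 13.5, 3.81 and 4.76 CPM in ECH, and at 19.2, 12.6, 8.95 and 11.8 CPM in HF. ECH fell into a high pair (ECH 1 and 2) and a low pair (ECH 3 and 4). The log2 fold change was −0.13 ± 0.43 in ECH and 0.63 ± 0.43 in HF against Ct, and −0.76 ± 0.43 in ECH against HF. Without Ct 4 the HF value was 0.39, and with the set as a covariate it was 2.02. Within set A, ECH against Ct was 0.40. Within set B, ECH against HF was −1.62 and met the thresholds, as did 2.49% of all genes there.

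Shmt2 turns serine into glycine in mitochondria and feeds one-carbon metabolism (chromosome 10, 127517123 to 127522444). It was the steadiest member in Ct and HF after Gpt2, with 38.2, 30.7, 43.6 and 41.1 CPM in Ct, 48.5, 36.9, 32.1 and 23.4 CPM in ECH, and 34.7, 44.2, 48.5 and 43.3 CPM in HF. All 3 groups overlapped. The log2 fold change against Ct was −0.13 ± 0.21 in ECH and 0.15 ± 0.21 in HF, and with the set as a covariate it was 0.15 and 0.77. Its end overlaps Ndufa4l2 on the other strand.

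Compared per kilobase of exon, the members spanned a wide range in Ct. The length was that of all annotated exons of a gene together. It need not be that of the transcripts present, and the order between genes depends on it. Atf4 was the most abundant at 151 ± 46.3 CPM per kb, followed by Ddit3 at 36.4 ± 15, Shmt2 at 12.4 ± 1.80 and Gpt2 at 4.80 ± 0.39 CPM per kb. These 4 did not overlap with each other, and the range of Gpt2 (4.23 to 5.07) lay above all lower members except Phgdh, which reached 4.84 CPM per kb in Ct 2. Below them Psat1 (1.99 CPM per kb), Phgdh (1.89), Atf5 (0.641), Chac1 (0.609), Asns (0.417) and Trib3 (0.208) overlapped from each neighbour to the next. In ECH Gpt2 stood at 13.6 ± 4.42 CPM per kb and came before Shmt2 at 11.3 ± 3.37, with overlapping ranges. In HF Shmt2 at 13.7 ± 1.85 lay above Gpt2 at 9.53 ± 0.95 CPM per kb without overlap. Trib3, the last of the 10 in Ct, was the sixth in both isoproterenol groups, at 1.04 CPM per kb in ECH and 1.37 in HF.

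**Figure D3:**
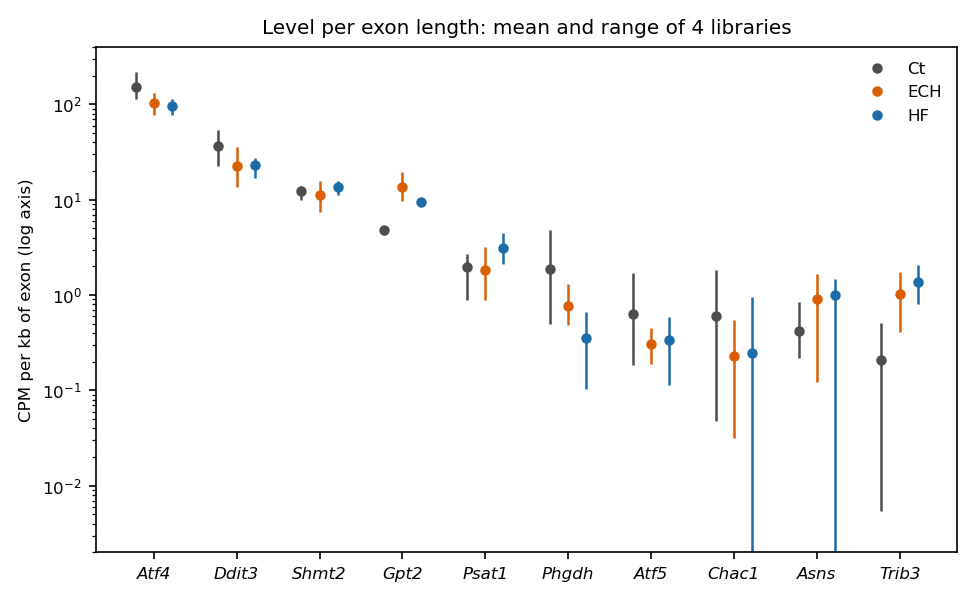
Level per kilobase of exon on a log axis, with the mean (dot) and the range of 4 libraries (line) for each group, in the order of the Ct means. Lines of Chac1 and Asns in HF run to the lower edge because a library was at 0. Atf4, Ddit3, Shmt2 and Gpt2 stand apart from each other in Ct, and Gpt2 stands at 4.80 CPM per kb in Ct and at 13.6 in ECH, beside Shmt2.

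The ECH libraries of the inferred sets differed for part of the members. ECH 1 and 2 were both above ECH 3 and 4 for 5 of 10 members (Atf5, Ddit3, Psat1, Phgdh and Shmt2), against 26.6% of all genes tested, and the pairs overlapped for the other 5, Gpt2 included. The opposite order was seen for 0 members, against 27.8% of genes. The mean of Psat1 in ECH 1 and 2 was 2.63 times that in ECH 3 and 4 (11.3 against 4.29 CPM), and that of Ddit3 was 1.96 times. In the branch of the unfolded protein response run by ATF6 and XBP1, which holds the chaperones of the endoplasmic reticulum, ECH 1 and 2 were both higher for 11 of 17 genes and both lower for 2. Over all 90 other pathway genes the counts were 41 and 18. Hspa5 (BiP) was at 1583 and 1650.3 CPM in ECH 1 and 2 and at 629 and 577 CPM in ECH 3 and 4, against 939 to 1515 CPM in Ct and 1195 to 1467 CPM in HF. Calr, calreticulin, was at 541 and 635 CPM in the first pair and at 259 and 205 CPM in the second. The mitochondrial folate enzyme Mthfd2 was at 24.6 and 27.0 against 12.3 and 7.86 CPM. Ddit4, an inhibitor of mTORC1 signalling, ran the other way, at 7.47 and 1.79 CPM against 32.2 and 23.1 CPM. Whether the mice, their hearts or the handling of the libraries differed between the pairs was not tested.

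**Figure D4:**
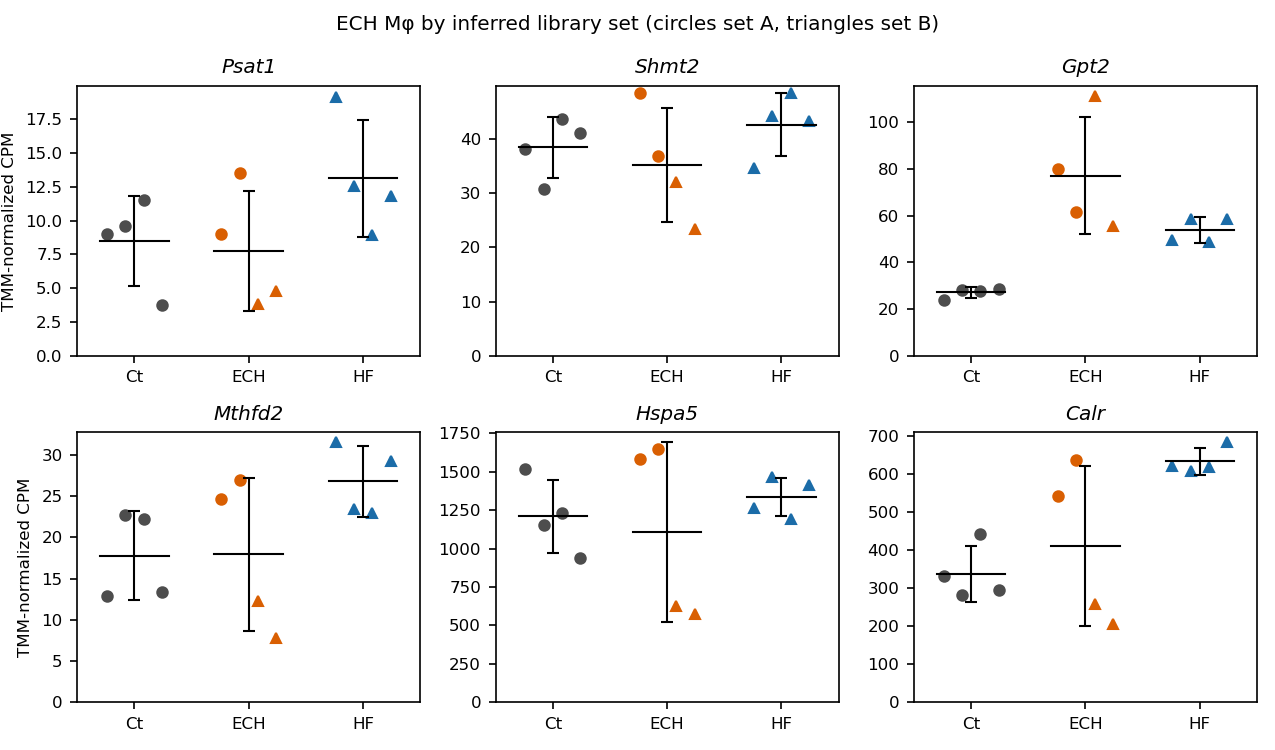
TMM-normalized CPM of 3 members and 3 other pathway genes by library, with circles for set A and triangles for set B, and mean and SD of 4. In Psat1, Shmt2, Mthfd2, Hspa5 and Calr the ECH circles lie above the ECH triangles, and in Gpt2 the pairs overlap (79.9 and 61.6 against 111 and 55.4 CPM).

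The other genes of the pathway were taken from 9 lists of 95 genes, of which 90 could be tested. In ECH against Ct, edgeR's quasi-likelihood test called 0 of the 90, and 13 (14.4%) had an unadjusted p under 0.05, 11 higher and 2 lower, beside 11.9% of all genes. DESeq2, the likelihood ratio test and limma-voom each called 1, Jdp2, against 1.74%, 1.49% and 0.575% of all genes. In HF against Ct 0 of 90 were called and 19 (21.1%) had an unadjusted p under 0.05, 14 higher and 5 lower, beside 16.1% of all genes. DESeq2 and the likelihood ratio test called Sdf2l1 there, against 2.4% and 1.87% of all genes, and limma-voom called Ppp1r15a, against 0.89%. In ECH against HF 0 of 90 were called, and 8 (8.89%) passed by unadjusted p, beside 7.98% of all genes. DESeq2 called 1 (Ddit4), and the likelihood ratio test and limma-voom called 0, against 0.323%, 0.329% and 0% of all genes. The median log2 fold change of the 90 was 0.17 in ECH and 0.21 in HF against Ct, beside medians of 0.01 and −0.01 for all genes.

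Jdp2 and Ppp1r15a were each called by a tool other than edgeR's quasi-likelihood test. Jdp2, a bZIP partner of AP-1 and ATF proteins, was at 49.0, 108, 61.0 and 56.3 CPM in Ct, at 192, 119, 150.4 and 126 CPM in ECH and at 107, 74.7, 64.9 and 72.1 CPM in HF. ECH lay above both other groups without overlap, by 1.10 ± 0.25 (log2) over Ct, with a quasi-likelihood FDR of 0.0843, and without Ct 2 the gene was called. Ppp1r15a (GADD34) directs the phosphatase that reverses eIF2α phosphorylation. Its level was 1611, 1323, 1066 and 1002 CPM in Ct, 949, 628, 445 and 659 CPM in ECH, and 914, 788, 485 and 484 CPM in HF. Both isoproterenol groups lay below Ct without overlap, with a log2 fold change of −0.90 ± 0.26 in either case, at an FDR of 0.175 in ECH and 0.144 in HF.

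Among the eIF2α kinases, Eif2ak3 (PERK, the sensor of the endoplasmic reticulum) measured 43.7 ± 5.35 CPM in Ct and 51.6 ± 8.19 CPM in ECH Mφ, against 27.6 ± 10.4 CPM in HF Mφ. HF differed from Ct by −0.66 ± 0.25 on the log2 scale, at an FDR of 0.235. Eif2ak1 (HRI, which senses heme shortage and mitochondrial stress) was at 78.8 CPM in Ct and 97.8 CPM in ECH, 0.31 ± 0.14 at an FDR of 0.414. Of the ATF4 partners, Cebpg had a log2 fold change of 0.25 ± 0.11 in ECH (FDR 0.376) and Cebpb one of −0.49 ± 0.21 in HF (FDR 0.290). Vldlr, a lipoprotein receptor induced by ATF4, was low, at 0.465 to 2.56 CPM in Ct and 0.0652 to 0.563 CPM in HF, with a log2 fold change of −1.74 ± 0.91 (FDR 0.371).

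No enzyme or transporter around the members was called in the quasi-likelihood model of the 3 groups without further terms, and both signs occurred. Of the 10 transporters 6 had a positive log2 fold change in ECH and 6 in HF, of the 10 serine, one-carbon and proline enzymes 6 and 7, and of the 9 other transaminases and amino acid enzymes 8 and 6. Without Ct 2 and HF 1 the numbers were 3 and 5 of 10 transporters and 8 and 10 of 10 serine, one-carbon and proline enzymes. For the other transaminases and amino acid enzymes, of which 10 were then tested, they were 8 and 6. Got2 and Got1, the mitochondrial and cytosolic aspartate transaminases, had log2 fold changes of 0.44 ± 0.15 (FDR 0.263) and 0.41 ± 0.18 (FDR 0.400) in ECH. Bcat2, the mitochondrial branched-chain transaminase, and Asl, which cleaves argininosuccinate, had 0.44 ± 0.16 (FDR 0.219) and 0.42 ± 0.15 (FDR 0.211) in HF. Slc3a2, the shared heavy chain of several amino acid transporters, was at 286 CPM in Ct and 398 CPM in ECH, 0.48 ± 0.16 at an FDR of 0.246. Slc7a11, the cystine transporter, and Slc38a2, a carrier of neutral amino acids, had −0.74 ± 0.40 (FDR 0.395) and −0.30 ± 0.16 (FDR 0.404) in HF, and Slc43a1 was at 0.278 CPM or less in each group mean. In the one-carbon cycle, Mthfd1l had 0.83 ± 0.39 in ECH (FDR 0.418), and Mthfd1 and Mthfd2 had 0.68 ± 0.37 (FDR 0.397) and 0.59 ± 0.35 (FDR 0.437) in HF. Aldh1l1 was at 0 to 1.18 CPM in Ct Mφ, 0.888 to 1.94 CPM in ECH Mφ and 0 to 5.67 CPM in HF Mφ, with log2 fold changes of 1.46 ± 1.39 (FDR 0.730) and 2.31 ± 1.43 (FDR 0.457), and HF 3 alone held the highest value. Psph, the last enzyme of serine synthesis after Psat1, was at 7.71 CPM in Ct Mφ and at 8.62 and 9.43 CPM in ECH and HF Mφ, and did not pass (FDR 0.852 and 0.624).

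The tRNA synthetases known as ATF4 targets differed little from Ct. All 12 had a positive log2 fold change in ECH and 11 of 12 in HF, with medians of 0.19 and 0.25, and 1 of 12 had an unadjusted p under 0.05 in each, beside 11.9% and 16.1% of all genes. Without Ct 2 and HF 1 the numbers were 11 and 9 of 12, and the medians 0.08 and 0.17. Nars had 0.34 ± 0.11 in ECH (FDR 0.235), and Gars 0.46 ± 0.15 in HF (FDR 0.184). Sars in ECH and Eprs in HF had 0.32 ± 0.17 and 0.31 ± 0.15. The 8 other cytosolic synthetases, which are not counted among those targets here, had medians of 0.18 and 0.32, with 7 of 8 positive in ECH and 6 of 8 in HF. Without Ct 2 and HF 1 their medians were −0.005 and 0.09, with 4 of 8 positive in ECH and 5 of 8 in HF. Hars was at −0.17 ± 0.18 in ECH and Vars at −0.27 ± 0.20 in HF. Dars had 0.35 ± 0.14 in ECH (FDR 0.343) and 0.47 ± 0.14 in HF (FDR 0.15), Qars 0.32 ± 0.20 in ECH and Farsb 0.69 ± 0.30 in HF (FDR 0.291).

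The branch of the unfolded protein response run by ATF6 and XBP1 was the longest of the 9 lists. Of its 17 genes, 8 had an unadjusted p under 0.05 in HF against Ct, all 8 higher, beside 16.1% of all genes. In ECH it was 1 of 17, beside 11.9% of all genes, and none reached an FDR under 0.05 in either comparison. The difference between the 2 counts was not tested. Sdf2l1, a co-chaperone, had 1.0 ± 0.31 (FDR 0.166), Calr 0.91 ± 0.30 (FDR 0.184) and the transcription factor Xbp1 0.43 ± 0.15 (FDR 0.199) in HF. In ECH the lowest p values of the list belonged to Xbp1 (0.32 ± 0.15, FDR 0.414) and Sel1l (0.36 ± 0.17, FDR 0.422), a part of the degradation machinery. Without Ct 2 and HF 1, 4 of 17 had a p under 0.05 in HF, beside 2299 of 14927 genes. With the set as a covariate 8 pathway genes were called in HF against Ct, beside 1.42% of all genes, all higher, 7 of them from this branch (Calr, Creld2, Hsp90b1, Hspa5, Manf, Pdia6 and Sdf2l1) and the eighth Mthfd2. That fit leans on the ECH pairs, which did not overlap for Hspa5, Calr, Mthfd2, Creld2, Manf, Pdia6 and Sdf2l1. In ECH against HF 9 pathway genes were called in the same fit, beside 1.86% of all genes, with Ddit4 higher and Atf3, Calr, Creld2, Hspa5, Manf, Mthfd2, Pdia6 and Sdf2l1 lower. Within set B these 9 and, also lower, Hspe1 and Mthfd1 were called, 11 in all, beside 2.49% of genes. Of the mitochondrial branch, the chaperone Hspa9 had 0.39 ± 0.16 in ECH (FDR 0.376) and 0.41 ± 0.16 in HF (FDR 0.256), Hspe1 had −0.64 ± 0.39 in ECH (FDR 0.560), and Dnaja3 had 0.28 ± 0.16 in HF (FDR 0.409).

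**Figure D5:**
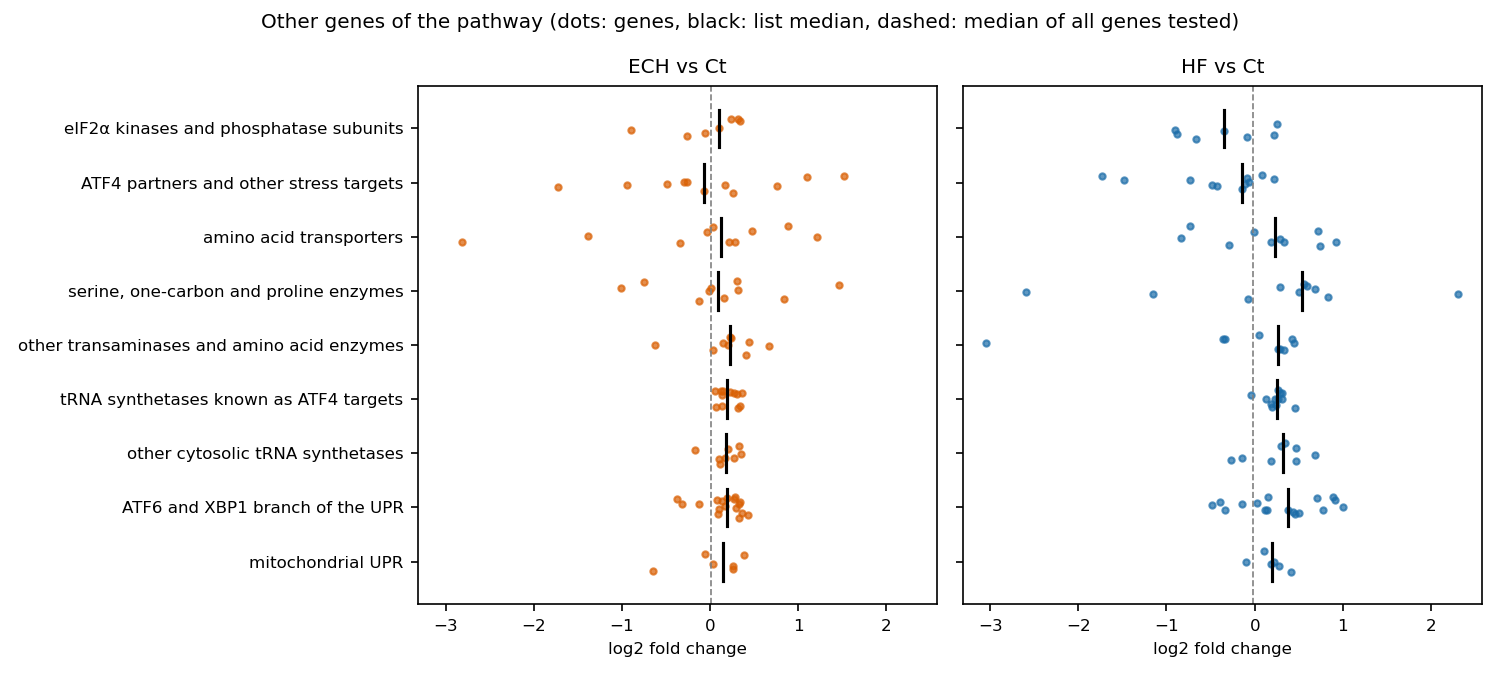
Log2 fold change of the 90 other pathway genes by list, in ECH (left) and HF (right) against Ct, with a dot per gene, a black bar at the list median and a dashed line at the median of all genes tested. The medians of the synthetases known as ATF4 targets lie at 0.19 and 0.25, the other synthetases run from −0.17 to 0.35 in ECH and from −0.27 to 0.69 in HF, and the ATF6 and XBP1 branch reaches 1.0 in HF.

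Other measures differed between the groups too. A list of 12 immediate early and heat shock genes that respond to tissue dissociation, such as Fos, Jun and Hspa1a, was lower in both isoproterenol groups for 12 of 12 genes. Its median log2 fold change was −0.65 in ECH and −0.74 in HF. An unadjusted p under 0.05 was reached by 7 and 8 of its genes, beside 11.9% and 16.1% of all genes. Its summed level was 39733 to 52052 CPM in Ct, 18149 to 40291 CPM in ECH and 19445 to 33547 CPM in HF. ECH 3 was the lowest library both for this sum and for Ddit3. The sum also had the pair order given for Ddit3, with 52052 and 43216 CPM in Ct 1 and 2 against 39733 and 39849 CPM in Ct 3 and 4. HF 1 and 2 stood at 33547 and 32805 CPM, and HF 3 and 4 at 19445 and 23700 CPM. Against Ct, the direction of the list was that of Atf4, Ddit3 and Ppp1r15a, and the part of the listed genes in the members' differences was not tested.

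Ct 2, which was the highest library for 5 of 10 members (Atf4, Atf5, Ddit3, Chac1 and Phgdh) and the lowest for Trib3, was also the highest library for the summed markers of B cells (446 CPM, other Ct libraries 96.6 to 231), T and NK cells (55.5 CPM), neutrophils (1688 CPM) and cardiomyocytes (215 CPM), and the lowest for Mφ markers (7454 CPM). B cell markers summed to 96.6 to 446 CPM in Ct, 34.3 to 79.8 CPM in ECH and 50.1 to 74.6 CPM in HF, with all 5 log2 fold changes negative in both comparisons, 4 of 5 at an unadjusted p under 0.05 and 1 of 5 called in each. Of all genes tested, 11.9% in ECH and 16.1% in HF had such a p, and 0.356% and 0.377% were called. Neutrophil markers summed to 409 to 1688 CPM in Ct, 176 to 486 CPM in ECH and 158 to 1356 CPM in HF, and T and NK cell markers to 10.7 to 55.5, 2.27 to 19.9 and 5.81 to 14.4 CPM. By unadjusted p, 3 of 7 neutrophil genes passed in ECH and 1 in HF, and 3 of 5 T and NK cell genes in ECH and 1 in HF, all of them lower and 0 called. Without Ct 2 and HF 1 these counts were 3 and 0 for neutrophils and 1 and 0 for T and NK cells. Cardiomyocyte markers summed to 75.9 to 215 CPM in Ct, 73.8 to 151 CPM in ECH and 59.8 to 98.0 CPM in HF. Of their 7 genes 6 had a negative log2 fold change in ECH (median −0.50) and 7 in HF (median −0.76), with 0 and 2 at an unadjusted p under 0.05 and 0 called, and without Ct 2 and HF 1 the medians were −0.14 and −0.52. That is the direction of Atf4, Ddit3 and Phgdh. Fibroblast markers ran in the direction of Gpt2 between the groups, with sums of 27.1 to 173 CPM in Ct, 65.1 to 384 CPM in ECH and 73.6 to 212 CPM in HF. In ECH libraries 1 to 4 the sum was 208, 112, 65.1 and 384 CPM, where Gpt2 was at 79.9, 61.6, 111 and 55.4 CPM. Of the 6 fibroblast genes 5 had a positive log2 fold change in ECH (median 1.11) and 6 in HF (median 0.58), and 0 were called. Endothelial markers summed to 7.75 to 23.4, 12.9 to 26.7 and 8.71 to 20.9 CPM, with 4 of 6 genes positive in each comparison (medians 0.76 and 0.16) and 0 called. Without Ct 2 and HF 1 the endothelial medians were 0.61 and −0.08. At an unadjusted p under 0.05 the fibroblast list had 0 genes in each comparison, and the endothelial list 0 in ECH and 1 in HF. Of the defining markers, Emcn was at 0 in 5 libraries, Ly6g, Pax5 and Ncr1 each in 3, Tek and Pdgfra each in 2, and Kdr and Tcf21 each in 1. The part of these cells in the levels of the members was not tested. Without Ct 2 the log2 fold change of Gpt2 was 1.53 in ECH and 1.01 in HF.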

How the data were processed

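Per the labels and the methods of the study, the authors made cDNA with SMART-Seq v4, sequenced the libraries from both ends, removed adapters (Trimmomatic), mapped the reads to mm10, which is GRCm38 (TopHat2), and counted genes (featureCounts). The deposited values are raw counts, 1 table per sample. The sources used here give no versions, annotation or strand setting and do not say if a read pair counted once. Without molecular identifiers, the limit taken for a count of 0, which is 3 counts, covers only counting error.

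Counts of all 24445 symbols were filtered with filterByExpr and scaled by TMM, and 1 quasi-likelihood model was fitted to all 12 libraries (R 4.3.3, edgeR 4.0.16, common dispersion 0.370). Benjamini-Hochberg adjustment covered 14608 genes. SEs were derived from the log2 fold change and the F statistic. Samples were grouped by their labels, which give 1 library per numbered replicate, so the spread is that between these libraries. The members and all gene lists were chosen with earlier results of these data known. Beside the members, the text names the 2 genes of each pathway list with the lowest p in ECH and in HF against Ct and every gene of the lists that was called in that model, except 1 marker gene that is not reported here. Genes named for the ECH pairs or for a call in an alternative, and Gpt, Psph, Hspa5, Hars and Vars, were added after their values were seen. Fgf21, Stc2, Cth, Bcat1 and Ass1 were too low to test, and Trbc2 of the T cell list was not used here. Positions and exon lengths are from GENCODE M21. The alternatives used DESeq2 1.42.0, limma-voom (limma 3.58.1) with sample weights, the likelihood ratio test, RLE scaling, other filters and thresholds, fits of the groups compared alone, the replicate block, the library set, and libraries left out. Figures were drawn with matplotlib 3.10.9.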

Additional observations from a re-analysis of the deposited data

Results flagged for a closer look

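Of 30 sets of 4 libraries (10 genes in 3 groups), 4 held a library far from its group by Dixon's criterion. Its rate of about 1 in 20 by chance holds for normally distributed values. Scarce genes need not be so distributed, and the 30 sets share the same libraries, so the count is not set against that rate. Ct 2 was high for Atf5 (3.43 CPM, others 0.368 to 0.849) and for Chac1 (3.04 CPM, others 0.0774 to 0.45). HF 1 was high for Chac1 (1.57 CPM, others 0 to 0.0369) and at 0 CPM for Asns, where the others held 3.49 to 4.0 CPM. These are the 2 libraries in which the most genes were missing relative to their group.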

How the results depend on the processing

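The number of genes called over all genes moved by over 1.5 times under several settings. In ECH against Ct (52 called) DESeq2 gave 248, limma-voom 84 and the likelihood ratio test 218, and it was 8 with only the groups compared, 22 with the replicate block, 22 with the set covariate, 1 within set A, 105 at an FDR under 0.10, and 11 to 95 with 1 library left out (11 without Ct 1, 95 without Ct 3). In HF against Ct (55 called) DESeq2 gave 336, limma-voom 130 and the likelihood ratio test 273, and it was 18 with the replicate block, 208 with the set covariate, 114 at an FDR under 0.10, and 15 to 103 with 1 library left out (15 without Ct 1, 103 without Ct 3). In ECH against HF (0 called) DESeq2 gave 47 and the likelihood ratio test 48, and it was 272 with the set covariate and 370 within set B. The members called in ECH against Ct were 0 with only the groups compared and within set A. In HF against Ct they were 2 with DESeq2, 1 with limma-voom and 1 without the fold threshold, and in ECH against HF 1 within set B. Of the other pathway genes, 1 (Jdp2) was called in ECH against Ct with limma-voom, DESeq2, the likelihood ratio test, an FDR under 0.10, or without Ct 2 and HF 1, and 0 to 1 with 1 library left out (1 without Ct 2). In HF against Ct 1 was called with limma-voom, DESeq2 and the likelihood ratio test and 8 with the set covariate, and in ECH against HF 1 with DESeq2, 9 with the set covariate and 11 within set B. A fit within 1 set cannot be made for HF against Ct. The cause of these shifts was not tested. Same-numbered libraries did not deviate together over all genes tested (correlations −0.07 to 0.07), and the replicate block changed no call of a member. Such correlations cannot show how the samples were taken, so whether the numbers pair samples is not known. Chac1 was at 0 counts in 2 libraries and Asns in 1, and Trib3 at 1 count in 1, and 4 against 4 libraries with a biological coefficient of variation of 60.8% limit what can be seen.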
